A study of Rattus norvegicus with 4 samples.

Results

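Adipocytes, the fat-storing cells of adipose tissue, were followed in the carotid body (CB) by 10 genes chosen by their symbols, of 32883 genes listed. The set holds the secreted proteins Adipoq (adiponectin), Lep (leptin), Retn (resistin) and Cfd (adipsin), the lipid droplet proteins Plin1, Plin4 and Cidec, the brown fat uncoupling protein Ucp1, the fatty acid carrier Fabp4 and the transcription factor Pparg. CBs of Sprague Dawley rats, with no other genotype named, were pooled at postnatal day 5 (neonates, 6 pups per library) and postnatal day 21 (adults, 3 rats per library), with 2 libraries of each age and no treatment at either age. These pool sizes are those of the design text of the series record, and the paper gives larger pools and more replicates. Both sexes were used without separation. Each library is whole tissue, so differences in the number of cells of a type and in RNA per cell cannot be told apart. Neither can be told apart from a difference in surrounding fat taken along at dissection.

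White adipocytes store triglyceride in one large droplet, while brown adipocytes hold many small droplets and burn fatty acids for heat. Pparg, acting as a dimer with a retinoid X receptor and together with C/EBP factors, switches on most genes of the set during fat cell differentiation. Plin1 and Cidec are largely restricted to adipocytes and Adipoq, Lep and Ucp1 are regarded as defining products of white or brown fat, whereas Fabp4 and Pparg are also made by capillary endothelium and macrophages. The CB is an oxygen-sensing organ of glomus cells, glia and vessels in the fork of the carotid artery, embedded in connective tissue and fat.

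Totals per library ran from 36286191 to 39476110 estimated counts, at which 3 counts, the floor of detection used here, correspond to 0.0760 to 0.0827 CPM (counts scaled to 1000000 counts per library). The floor and the intervals given below cover counting error only. Protein-coding mitochondrial DNA held 15.6% to 18.7% of counts over its 13 genes in neonates and 9.06% to 9.08% in adults, so a CPM of another gene is scaled down more in neonates. Log2 fold changes are therefore taken after TMM normalization, which corrects for such a share, from the quasi-likelihood test of edgeR, and p-values are adjusted by the Benjamini-Hochberg method over the 13843 genes tested. The fold changes are neonate over adult, so a negative value means a lower level in neonates. Parathyroid transcripts (Pth, Gcm2, Casr) summed to 1616 CPM in the first neonatal library, 197 CPM in the other and at most 0.0551 CPM in adults, so neonate replicate 1 stands apart. Without that library, log2 fold changes were -2.64 for Adipoq, -1.91 for Plin1, -4.10 for Retn, -2.00 for Cidec and 0.71 for Fabp4. These are the members that passed the test with all 4 libraries. The other neonatal library still held parathyroid transcripts, so leaving out replicate 1 does not remove this difference between the ages. Glomus cell markers were present in every library and summed to between 3452 and 4573 CPM.

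Promoters are shown for 5 members that were low in neonates and higher in adults, picked after their values were seen, to set side by side the motif letters they hold. Each is the 250 bases before the transcription start, 5′ to 3′, from RefSeq on the assembly GRCr8, which is not the assembly the reads were mapped to. Capitals mark the letters TTNNGNAA, a loose C/EBP motif, and AGGTCA, the half-site of Pparg and retinoid X receptor dimers, each searched on both strands.
Adipoq, chr11:91240170-91240419, minus strand: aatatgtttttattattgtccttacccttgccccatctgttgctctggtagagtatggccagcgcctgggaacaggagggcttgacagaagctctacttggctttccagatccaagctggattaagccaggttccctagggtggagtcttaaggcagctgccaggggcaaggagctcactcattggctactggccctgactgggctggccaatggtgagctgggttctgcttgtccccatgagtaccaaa
Retn, chr12:6508524-6508773, plus strand: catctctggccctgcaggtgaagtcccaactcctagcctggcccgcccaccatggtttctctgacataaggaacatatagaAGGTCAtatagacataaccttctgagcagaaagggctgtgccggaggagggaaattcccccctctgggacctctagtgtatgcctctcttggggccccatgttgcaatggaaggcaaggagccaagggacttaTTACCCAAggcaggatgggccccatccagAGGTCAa
Lep, chr4:58626288-58626537, plus strand: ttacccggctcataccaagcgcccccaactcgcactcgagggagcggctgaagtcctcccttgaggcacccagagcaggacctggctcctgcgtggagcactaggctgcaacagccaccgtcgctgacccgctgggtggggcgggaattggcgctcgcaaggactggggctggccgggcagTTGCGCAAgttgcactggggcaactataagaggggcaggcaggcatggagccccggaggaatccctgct
Plin1, chr1:143086149-143086398, minus strand: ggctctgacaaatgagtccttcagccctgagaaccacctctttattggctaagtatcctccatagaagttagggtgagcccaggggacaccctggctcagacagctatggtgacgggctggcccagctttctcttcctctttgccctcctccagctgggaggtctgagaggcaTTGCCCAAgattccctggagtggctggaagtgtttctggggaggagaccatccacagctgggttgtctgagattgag
Cidec, chr4:148137116-148137365, minus strand: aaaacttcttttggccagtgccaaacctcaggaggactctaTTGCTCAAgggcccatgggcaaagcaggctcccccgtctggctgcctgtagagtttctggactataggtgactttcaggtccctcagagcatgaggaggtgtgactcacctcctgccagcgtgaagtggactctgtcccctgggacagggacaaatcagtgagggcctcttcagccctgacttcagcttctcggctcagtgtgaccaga
The C/EBP letters were present in Retn, Lep, Plin1 and Cidec and not in Adipoq. Counted over the 9 members with a promoter sequence, 5 held these letters in at least 1 listed start (the fifth was Pparg), against 37.2% of 33469 promoters of the same length, where a gene can have several starts. The half-site AGGTCA was found only in Retn among the 9, against 14.1% of all promoters. The complete direct repeat of that half-site with 1 base between, which contains the half-site, was in none of the 9 and in 0.0508% of all promoters. TATAAA was found only in Ucp1, against 12.9% of all promoters. These matches describe the letters in the window and show no binding. Fabp4 was not analysed here for its promoter.

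Adipoq, Plin1, Retn and Cidec, products of fat cells, were lower in neonates than in adults. Ucp1, Cfd and Pparg passed in neither direction and Fabp4 was higher in neonates. Of the 8 members tested, 4 passed at an adjusted p under 0.05 with a lower level in neonates (Adipoq, Plin1, Retn and Cidec, each past 2-fold), 1 was higher (Fabp4, less than 2-fold) and 3 did not pass (Ucp1, Cfd and Pparg). Over all genes tested, 31.1% were lower and 31.2% higher at this threshold, and with a change of at least 2-fold these shares were 13.2% and 7.68%. Scaled to library size alone, the members gave 4 lower and 0 higher, and all genes 5997 lower and 2587 higher in place of 4300 and 4325. The other members, Lep and Plin4, stayed under the filter of 1 CPM in at least 2 libraries and are given by level. Retn and Cidec passed that filter through the adult libraries alone, so the filter itself favoured a low neonatal level for them, and without either adult library they fell under it and the count of members lower in neonates was 2. Without neonate replicate 2, or without adult replicate 1, Fabp4 lost its call and 0 members were higher. The median log2 fold change of the 8 was -1.17, against -0.0029 for all genes tested. In CPM, both neonatal libraries lay below both adult libraries for 7 of the 10 members and the ages overlapped for Ucp1, Fabp4 and Cfd, while 55.3% of all genes tested lay below in neonates in this way and 27.9% above.

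**Figure D1:**
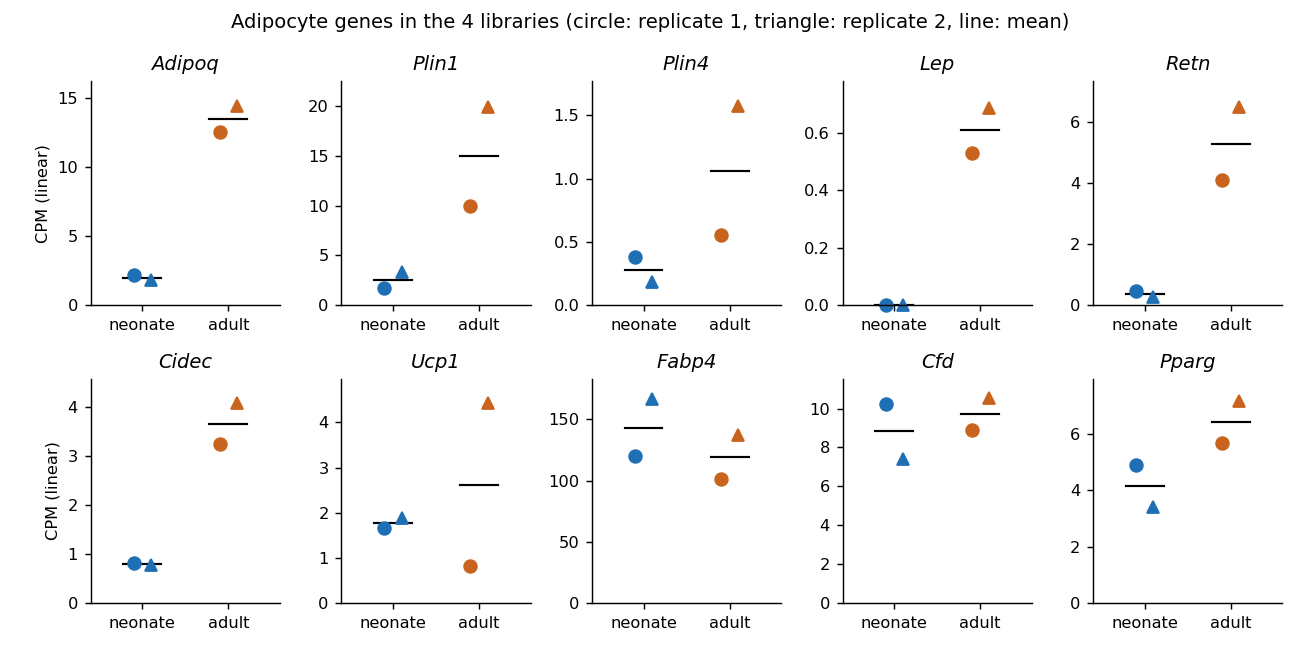
Level of each of the 10 adipocyte genes in CPM (linear axes from 0, a scale of its own for each gene) in the 2 neonatal and 2 adult libraries, with circles for replicate 1, triangles for replicate 2 and a line at the mean. Adipoq, Plin1, Retn, Cidec and Lep sit higher in both adult libraries than in both neonatal ones, while the ages overlap for Ucp1, Fabp4 and Cfd.

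Adipoq (ENSRNOG00000001821) encodes adiponectin, a hormone made almost exclusively by fat cells that raises insulin sensitivity. It was at 2.15 and 1.84 CPM in the neonatal libraries and at 12.6 and 14.4 CPM in the adult libraries. Both adult libraries were far above both neonatal ones, and libraries of an age lay close together. The mean was 2.0 ± 0.219 CPM in neonates and 13.5 ± 1.30 CPM in adults (SD, 2 libraries each), and edgeR gave a log2 ratio of the ages of -2.51 ± 0.23 (SE, adjusted p = 2.85e-05), or 5.68-fold higher in adults.

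Retn (ENSRNOG00000001001) encodes resistin, which in rodents is secreted by white adipocytes and opposes insulin action. Its levels were 0.481 and 0.260 CPM (19 and 10 counts) in neonates and 4.10 and 6.50 CPM (155 and 236 counts) in adults. The log2 fold change was -3.57 ± 0.43 (SE, adjusted p = 0.000131 in edgeR), or 11.9-fold higher in adults. Resistin thus had the largest fold change among the 8 members tested, from a neonatal level of few counts.

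Lep (ENSRNOG00000045797), the gene of leptin, the satiety hormone that signals the size of fat stores, had no counts in either neonatal library and 20 and 25 counts in the adult libraries. These adult counts correspond to 0.529 and 0.689 CPM. Against a neonatal floor of 3 counts per library, and with TMM normalization as for the other members, Lep was at least 6.67-fold higher in adults. The absence of counts in neonates limits the level to below that floor and does not show that leptin was absent. Tested without the filter on low counts, where 22.8% of 19411 genes were lower in neonates, Lep had an adjusted p of 0.00568 from edgeR.

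Cfd (ENSRNOG00000033564) encodes adipsin, the protease that starts the alternative complement pathway and that fat cells, and also macrophages, secrete. It was at 10.3 and 7.43 CPM in neonates and at 8.92 and 10.5 CPM in adults. The ages overlapped, and no difference was detected, with an edgeR estimate of 0.11 ± 0.22 on the log2 scale (SE, adjusted p = 0.667) that turned to -0.14 when scaled to library size alone.

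Plin1 (ENSRNOG00000015086) encodes perilipin 1, the coat protein of the adipocyte lipid droplet that gates access of lipases to stored fat. It was at 1.75 and 3.38 CPM in neonates and at 9.95 and 20.0 CPM in adults. In both ages replicate 2 was about as far above replicate 1, by 1.93-fold in neonates (95% counting interval 1.43 to 2.63, exact binomial) and by 2.0-fold in adults (1.77 to 2.28). The difference between ages was larger than this spread, at -2.30 ± 0.38 on the log2 scale (SE, adjusted p = 0.000747 from edgeR), or 4.93-fold higher in adults. It ran from -2.80 without neonate replicate 2 to -1.75 without adult replicate 2, and the adjusted p stayed at or under 0.00423 in every alternative run.

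Cidec (ENSRNOG00000009153) encodes the fat-specific protein that fuses small droplets into the single large one of white adipocytes. Its levels were 0.811 and 0.779 CPM in neonates and 3.26 and 4.08 CPM in adults. Libraries of an age lay close together, and the log2 fold change was -1.95 ± 0.34 (SE, adjusted p = 0.00109 in edgeR), or 3.88-fold higher in adults. Among all 13842 other genes tested, Cidec ranked 242 in likeness to Adipoq over the 4 libraries, the closest of the members.

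Plin4 (ENSRNOG00000047046), a perilipin that coats nascent droplets in white fat, had the fewest counts after Lep. It had 15 and 7 counts in neonates and 21 and 57 in adults, or 0.380, 0.182, 0.556 and 1.57 CPM. The adult libraries differed from each other by 2.83-fold (95% counting interval 1.69 to 4.91). Tested without the filter, the difference between ages did not pass (log2 fold change -1.67, adjusted p = 0.0943 from edgeR).

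**Figure D2:**
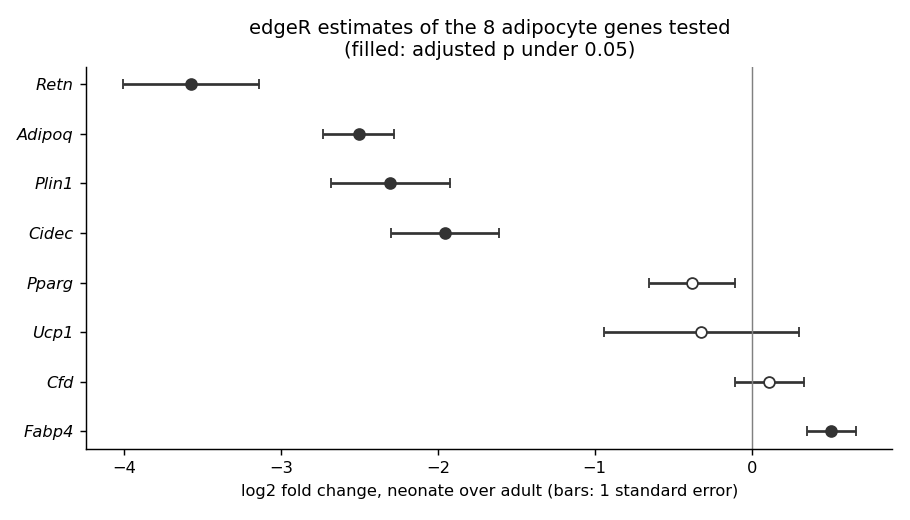
Log2 fold change, neonate over adult, with bars of 1 standard error, for the 8 adipocyte genes tested by edgeR. Filled points passed an adjusted p of 0.05; Retn, Adipoq, Plin1 and Cidec lie between -3.57 and -1.95, Fabp4 lies at 0.51, and the open points of Pparg, Ucp1 and Cfd lie within 0.38 of 0.

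Ucp1 (ENSRNOG00000003580) encodes the uncoupling protein that lets brown and beige fat mitochondria turn fuel into heat. It was at 1.66 and 1.88 CPM in neonates, and at 0.821 CPM in adult replicate 1 and 4.42 CPM in adult replicate 2. The adult libraries lay on both sides of the neonatal ones, 5.37-fold apart (95% counting interval 3.64 to 8.17). The comparison of ages gave an edgeR estimate of -0.32 ± 0.62 on the log2 scale (SE, adjusted p = 0.671), and its direction was set by which adult library was used: -1.10 (adjusted p = 0.0508) without adult replicate 1 and 1.30 (adjusted p = 0.0667) without adult replicate 2. Ucp1 was the single member with fractional estimated counts, which arise where reads fit more than one sequence, so its level is less certain.

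Only 0.181% of the genes tested were at least as far apart between the adult libraries as Ucp1 on the log2 scale. Another 10 genes were further apart in the same direction, and all 10 had fractional estimated counts, against 8.53% of all genes listed. Genes as far apart in the opposite direction are not described here. The members without fractional counts were also higher in adult replicate 2, from 1.15-fold for Adipoq to 2.83-fold for Plin4. The cause of the spread of Ucp1 between the adult libraries was not tested. Cidea, a droplet protein of brown fat, was at 1.54 CPM in adult replicate 1 and 3.03 CPM in adult replicate 2, against 1.32 and 1.38 CPM in neonates, and did not pass the test between ages (adjusted p = 0.294 from edgeR). The sum of Ucp1 and Cidea was 2.98 and 3.25 CPM in neonates and 2.36 and 7.45 CPM in adults, with overlap.

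Counts of a member over those of Adipoq in the same library do not depend on depth. Since Adipoq was 5.68-fold higher in adults, a member with no change falls in adults on this scale. Ucp1 had 0.770 and 1.02 counts per count of Adipoq in neonates and 0.0653 and 0.307 in adults. Cidec kept a narrower range, from 0.376 and 0.423 in neonates to 0.259 and 0.283 in adults. Retn went the other way, from 0.224 and 0.141 in neonates to 0.326 and 0.451 in adults. Plin1 over Adipoq overlapped between ages (0.812 and 1.83 against 0.792 and 1.38).

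Fabp4 (ENSRNOG00000010805) encodes a cytosolic carrier of fatty acids in adipocytes, capillary endothelium and macrophages. It was at 120.2 and 166 CPM in neonates and at 101 and 137 CPM in adults. The CPM of the ages overlapped, and after TMM normalization the log2 fold change was 0.51 ± 0.16 (SE, adjusted p = 0.0190 in edgeR), or 1.42-fold higher in neonates. The call was lost when scaled to library size alone (0.27, adjusted p = 0.205), without neonate replicate 2 (0.30, adjusted p = 0.0899) and without adult replicate 1 (0.29, adjusted p = 0.112). The 6 endothelial markers in the files summed to 776 and 859 CPM in neonates and 987 and 1044 CPM in adults. The 7 macrophage markers summed to 69.4 and 82.2 CPM and 153 and 151 CPM. These sums are in CPM without TMM normalization. After it, the median log2 fold change was -0.08 for the endothelial and -0.84 for the macrophage markers. None of these 13 markers was at 0 in any library, and their part in the level of Fabp4 was not tested.

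Pparg (ENSRNOG00000008839) encodes the nuclear receptor that drives fat cell differentiation and is also active in endothelium and macrophages. It was at 4.89 and 3.43 CPM in neonates and at 5.69 and 7.19 CPM in adults. The ages did not overlap in CPM, but the log2 fold change of -0.38 ± 0.27 (SE) did not pass the test (adjusted p = 0.251 from edgeR), and its adjusted p ranged from 0.0518 to 0.733 over the alternatives.

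In adults all 10 members had a higher CPM in replicate 2, while 55.3% of all genes tested were higher there. The ratio ran from 1.15 for Adipoq to 5.37 for Ucp1, and for 8 members its counting interval lay above 1. The share of all genes with such an interval was not computed, so this count of members has no background beside it. In neonates 3 members were higher in replicate 2 (Plin1, Ucp1 and Fabp4), 6 were lower and Lep had no counts. Of all genes tested, 59.9% were higher in neonatal replicate 2. Cfd and Pparg were lower there with an interval below 1, at 0.724 (0.620 to 0.844) and 0.701 (0.558 to 0.879). Fabp4 kept nearly the same ratio at both ages, 1.38 in neonates and 1.35 in adults.

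**Figure D3:**
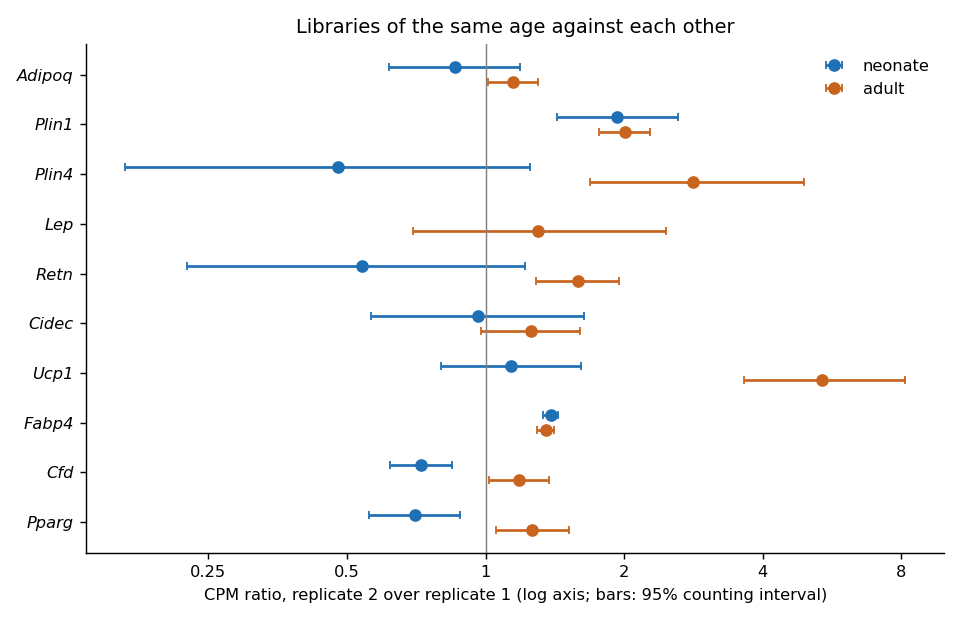
CPM of replicate 2 over replicate 1 for each member (log axis), with 95% counting intervals from the exact binomial method, for neonates and adults. All 10 adult points lie above 1, up to 5.37 for Ucp1, while 6 of the 9 neonatal points lie below 1. Of all genes tested, 55.3% were higher in replicate 2 in adults and 59.9% in neonates.

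The 5 genes tested whose pattern over the 4 libraries was most like that of Adipoq, by distance of centred log2 CPM, were Tenm4 (distance 0.131), Zbtb4 (0.138), Pirt (0.143), Prkacb (0.149) and Rasef (0.156). All 5 were at 0.364 to 8.18 CPM in neonates and 2.44 to 60.1 CPM in adults, and none of them is in the lists used here. Cidec lay at 0.611, Plin1 at 1.01 and Retn at 1.09, so that likeness over these libraries did not single out the adipocyte genes. Fabp4 (3.03), Ucp1 (3.02), Cfd (2.58) and Pparg (2.10) were further away.

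Receptors of the adipokines were lower in neonates too, though C3ar1 did not pass the test. Of 6 tested, 5 passed as lower and the median log2 fold change was -0.77. Over all genes tested, 31.1% were lower and 31.2% higher at this threshold. These are the shares beside which the counts of this list and of each list below stand. Adipor2, an adiponectin receptor, was at 4.18 and 3.58 CPM in neonates and 19.0 and 22.8 CPM in adults, and edgeR gave a log2 ratio of the ages of -2.18 ± 0.18 (SE, adjusted p = 1.94e-05). Lepr, the leptin receptor, was at 7.83 and 8.31 CPM in neonates and 30.0 and 39.4 CPM in adults, and edgeR gave a log2 ratio of the ages of -1.86 ± 0.15 (SE, adjusted p = 1.51e-05), with fractional counts. Both changed by 3.62-fold or more without overlap between ages. Adipor1 (-0.35), the adiponectin-binding cadherin Cdh13 (-0.27) and the resistin-binding Cap1 (-0.26) were lower by less than 1.3-fold, and Cdh13 and Cap1 lost the call when single libraries were left out. C3ar1 is the receptor of the complement fragment that adipsin activity yields. It was at 0.253 and 0.597 CPM in neonates and 1.03 and 1.27 CPM in adults. C3ar1 thus reached 1 CPM in the adult libraries alone. It did not pass (adjusted p = 0.0645 from edgeR), though it did with library size alone or the replicate block, both run on all 4 libraries. Its log2 fold change was -1.88 without neonate replicate 2 and -0.71 without neonate replicate 1.

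Among genes of triglyceride storage and breakdown, 13 of 20 tested were lower in neonates, 3 were higher and 4 did not pass, with a median log2 fold change of -0.59. The largest changes were those of Fitm1 (-1.59), which buds droplets from the endoplasmic reticulum, Gpam (-1.47), the first acyltransferase of triglyceride synthesis, Lpin1 (-1.27), a phosphatidate phosphatase, and Mgll (-1.17), the monoglyceride lipase. Fitm1 kept its call but ran from -2.56 without neonate replicate 1 to -0.99 without neonate replicate 2, so its place in this order rests on 1 library. Gpihbp1 (0.81), which carries lipoprotein lipase to the capillary lumen, Dgat1 (0.56) and Bscl2 (0.45) were higher in neonates, and Bscl2 lost the call with library size alone or without adult replicate 2.

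Of the genes of fatty acid synthesis, 6 of 11 tested were lower in neonates, 2 were higher and 3 did not pass, with a median of -0.64. Thrsp, a lipogenic regulator enriched in fat and liver, was at 0.228 and 0.545 CPM in neonates and 8.18 and 11.8 CPM in adults, and edgeR gave a log2 ratio of the ages of -4.44 ± 0.40 (SE, adjusted p = 2.85e-05). That is 21.7-fold higher in adults, the largest change in this list, and it ran from -3.95 without neonate replicate 1 to -5.14 without neonate replicate 2 on the log2 scale. Thrsp reached 1 CPM in the adult libraries alone and was not tested without either of them. Scd, the stearoyl-CoA desaturase, was at 11.1 and 13.9 CPM against 81.7 and 76.9 CPM, and edgeR gave a log2 ratio of the ages of -2.42 (adjusted p = 1.84e-06), with fractional counts. Acaca and Elovl5 were both at -1.21. Fasn, the fatty acid synthase, did not pass (-0.19, adjusted p = 0.119 from edgeR), though it did with library size alone (-0.43), the replicate block or without neonate replicate 1.

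The brown adipocyte list was thinly measured, with 8 of 15 genes tested. Of these, 4 were lower in neonates, 1 was higher and 3 did not pass. Ppargc1a (-1.48), the coactivator of mitochondrial biogenesis, Bmp8b (-1.35), Ebf2 (-0.76) and Gk (-0.35) were lower, and Bmp8b lost the call with DESeq2, without the filter or without neonate replicate 1, and Gk without neonate replicate 1 or adult replicate 2. Ppargc1a and Bmp8b reached 1 CPM in the adult libraries alone, so they entered the test through the age at which they were higher. Cpt1b, the mitochondrial carnitine palmitoyltransferase of muscle and brown fat, was higher in neonates, with 43.1 and 42.8 CPM against 13.5 and 16.3 CPM (log2 fold change 1.78, adjusted p = 5.71e-06 from edgeR), and has fractional counts. The brown fat genes Elovl3, Zic1 and Slc27a2 had more than 3 counts in at most 1 library. Skeletal muscle shares Cpt1b and Cox8b with brown fat. Its 6 markers summed to 12.8 and 20.5 CPM in neonates and 16.3 and 23.5 CPM in adults. The part of muscle in the level of Cpt1b was not tested.

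**Figure D4:**
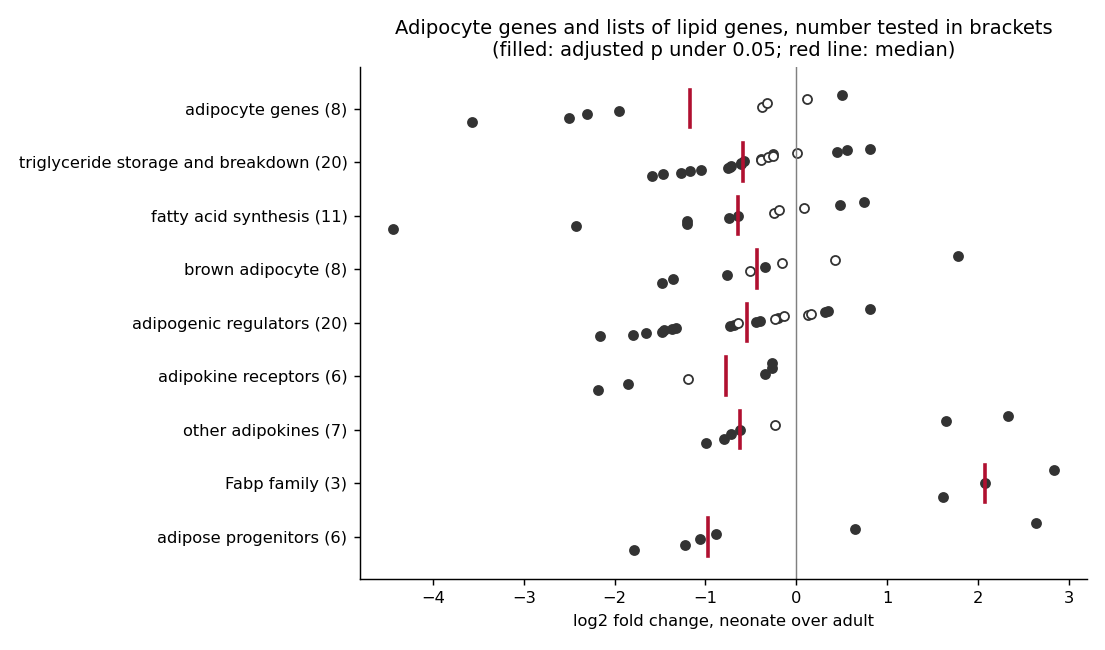
Log2 fold change, neonate over adult, of each gene tested in the adipocyte set and in the 8 lists of lipid and adipose genes, with filled points at an adjusted p under 0.05 and a red line at the median. Medians lie below 0 in every list except the Fabp family, whose 3 genes tested lie between 1.61 and 2.84.

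Of the regulators that act with Pparg, 12 of 20 tested were lower in neonates, 3 were higher and 5 did not pass, with a median of -0.55. Klf15, a factor of late fat cell differentiation and of the glucocorticoid response, was at 5.55 and 6.80 CPM in neonates and 33.4 and 32.2 CPM in adults, and edgeR gave a log2 ratio of the ages of -2.17 (adjusted p = 4.84e-06). The coactivator Ncoa2 (-1.80), Stat5b (-1.66, fractional counts) and the oxysterol receptor Nr1h3 (-1.48) followed. Among the retinoid X receptors, the dimer partners of Pparg, Rxra was lower in neonates (-1.32) while Rxrg (0.81) and Rxrb (0.32) were higher, Rxrb not with library size alone (0.075) or without adult replicate 1. Cebpb (-0.69) and Cebpd (-1.46), early C/EBP factors of adipogenesis, were lower in neonates, with the call of Cebpb lost without neonate replicate 2 or adult replicate 1. Cebpa, the late one, was at 3.04 and 4.62 CPM against 6.67 and 7.50 CPM and did not pass (adjusted p = 0.0566 from edgeR), though it did under 5 of its alternatives, limma-voom among them.

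Other adipokines were split, with 4 of 7 tested lower in neonates, 2 higher and 1 not passing. Angptl4, a fasting- and hypoxia-responsive inhibitor of lipoprotein lipase, was at 35.4 and 37.6 CPM in neonates and 7.97 and 9.29 CPM in adults, and edgeR gave a log2 ratio of the ages of 2.33 (adjusted p = 2.07e-06). Apln, the peptide apelin, was likewise higher in neonates (1.64). Fndc5 (-0.999), Rbp4 (-0.79), Nampt (-0.72) and Rarres2 (-0.62) were lower. Itln1, Serpina12 and Retnla had no counts in any library.

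The relatives of Fabp4 stood higher in neonates in all 3 cases tested. Fabp5, the epidermal fatty acid carrier that also occurs in endothelium and macrophages, was at 175 and 172 CPM in neonates and 45.0 and 52.3 CPM in adults, and edgeR gave a log2 ratio of the ages of 2.08 ± 0.090 (SE, adjusted p = 1.44e-06). Fabp7 (2.84), a carrier of glia, and Fabp3 (1.61), that of heart and muscle, were also higher. Fabp7 reached 1 CPM in the neonatal libraries alone, and so entered the test through the age at which it was higher, at 1.87 and 1.77 CPM against 0.106 and 0.496 CPM. Its log2 fold change ran from 2.09 without adult replicate 1 to 4.27 without adult replicate 2. Fabp1, Fabp6 and Fabp12 had no counts in any library, and Fabp2 had more than 3 counts in at most 1.

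Markers of adipose progenitors, the fibroblast-like cells from which adipocytes arise, also changed in both directions, with 4 of 6 tested lower in neonates and 2 higher. Dlk1, a transmembrane protein that holds preadipocytes undifferentiated and is found in other immature cells, was at 69.5 and 66.4 CPM in neonates and 14.96 and 10.8 CPM in adults, and edgeR gave a log2 ratio of the ages of 2.64 (adjusted p = 3.66e-06). Pi16 (-1.78, fractional counts), Cd34 (-1.23), Dpp4 (-1.06) and Pdgfra (-0.89), found on connective tissue progenitors, were lower in neonates, and Dpp4 lost the call without adult replicate 2. The fibroblast markers Col1a1, Col3a1, Dcn and Lum summed to 11637 and 14427 CPM in neonates and 17934 and 20117 CPM in adults. After TMM normalization their median log2 fold change was -0.37, and their part in the progenitor values was not tested. Over the 8 lists together, 48 of 81 genes tested were lower in neonates and 16 higher, against 31.1% and 31.2% of all genes tested. The lists were chosen with earlier results of these data known, so these counts are no independent support. They include Thrsp, Ppargc1a and Bmp8b, which entered the test through the adult libraries, and Fabp7, which did so through the neonatal ones. Some list genes, such as Plin5 and Adrb3, lie below the filter and are not in these counts.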

How the data were processed

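Total RNA of pooled CBs was sequenced in 4 libraries (2 neonatal, 2 adult), grouped by the sample titles. The authors trimmed the reads, ran STAR and Salmon (1.5.2 in the submitters' processing notes) on the rat build Rnor_6.0 and deposited estimated counts per gene, neither normalized nor filtered, for 32883 genes. Estimated counts split reads between similar sequences, and 8.53% of genes have a fractional value in a library.

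CPM were computed from the estimated counts and the library totals. For tests, counts were rounded, 636 genes annotated as other than protein-coding in a RefSeq table of GRCr8 were removed by symbol, and a minimum of 1 CPM in 2 or more libraries left 13843 genes. Ages were compared by edgeR 4.0.16 (TMM, quasi-likelihood, no covariate) in R 4.3.3. A gene passed at a Benjamini-Hochberg adjusted p under 0.05 over all genes tested. Standard errors are the log2 fold change over the square root of the F statistic. For 1 gene, an exact two-sided permutation test of 2 libraries against 2 cannot go below p = 0.333. Each library is 1 pool. Libraries of an age differed by 32.6 (neonates) and 15.4 (adults) in chi-square per degree of freedom, above sampling noise. Same-numbered libraries did not deviate together (correlation -0.015).

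Alternatives were DESeq2 1.42.0, limma-voom 3.58.1, RLE factors, scaling to library size alone, TMM computed after setting aside ribosomal protein and mitochondrial DNA genes, no filter, a filter of 5 CPM on the mean, noncoding genes kept in, a replicate block and each library left out. On simulated data of 13726 genes, 95 of 100 genes changed by 1 on the log2 scale were called with the right sign. Of those changed by 2, 100 of 100 were, and 7 unchanged genes were called. The simulation gave all genes the same fixed dispersion and changed few genes, in random directions. It therefore checks that the code runs correctly and does not measure performance on these libraries.

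The members, the 8 gene lists and the 9 lists of cell markers were chosen with earlier results of these data known. In each list the genes named are up to 4 that passed with the largest change, with all adipokine receptors. The 5 genes nearest to Adipoq were taken by Euclidean distance of log2 CPM (TMM, prior count 2) centred over the libraries. Other list genes are named for their role or value. Of the list genes, 103 of 105 were used. The study's PCR and gene set results were not analysed here.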

Additional observations from a re-analysis of the deposited data

How the results depend on the processing

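Adipoq and Plin1 kept their direction and call in all 13 alternatives, with log2 fold changes from -2.75 to -2.36 and from -2.80 to -1.75. Retn and Cidec did so in the 10 alternatives in which they were tested, from -4.10 to -3.16 and from -2.20 to -1.88. They fell under the filter with a mean of at least 5 CPM and without either adult library, so the count of members lower in neonates was 2 in place of 4 with a mean of at least 5 CPM, and ran from 2 to 4 when 1 library was left out. The count of members higher in neonates, Fabp4 alone, was 0 when scaled to library size alone, and ran from 0 to 1 when 1 library was left out. Ucp1 changed direction with limma-voom (0.14), with the replicate block (0.048), and ran from -1.10 to 1.30 as single libraries were left out. Cfd changed direction with library size alone (-0.14), and ran from -0.16 without neonate replicate 1 to 0.37 without neonate replicate 2, with -0.02 without adult replicate 1. The cause was not tested. Library size alone moved the median over all genes tested to -0.25 on the log2 scale. The replicate block left the members at 4 lower and 1 higher and moved the lists from 48 to 52 lower, with 16 higher as before. It changed no call of a member, and the numbers are shared labels only. Of 607 values of 48 genes named in the lists, 580 kept direction and call, 15 lost the call, 11 gained it and 1 reversed, that of Cidea, which ran from -0.94 to 0.020 as single libraries were left out. At these depths Lep and Plin4 rest on 15 counts or fewer in each neonatal library.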
